A study of Mus musculus with 6 samples.

Results

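Mouse brain libraries were divided by the presence of transcripts of the cerebellum. The libraries were chosen by their Gabra6 counts, not by a label: those with a count share (CPM, counts scaled to a common library total) of Gabra6 above 5 were set against those at 0. Of the 6 libraries in the series, 3 were above the threshold (WT1, KO1 and KO3) and 3 were at 0 (WT2, WT3 and KO2). Replicates are written WT1 to WT3 and KO1 to KO3, and the 2 sides are called here the libraries with and the libraries without cerebellar transcripts. Because the same counts chose the libraries, every difference between them is given as a description, without a p-value, and supports nothing by itself.

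The study sequenced polyadenylated RNA of mouse brain at postnatal day 14, in C57BL/6 mice. The WT group holds 3 samples labelled wild-type, and the KO group holds 3 samples labelled PRMT5 olig2cre KO, a deletion of the arginine methyltransferase PRMT5 by a Cre under Olig2 control, which acts in the oligodendrocyte lineage and in other cells with an Olig2 history. The labels give no further allele, and do not say whether WT samples carry a floxed allele or the Cre. The protocol states that brains were removed and extracted with Trizol, and gives no dissection boundary. The labels do not say whether replicates were separate animals. By the Xist levels given below, each genotype held libraries of both sexes, so neither came from a single animal. Libraries of the same sex may still share an animal. P-values for genotype therefore measure the spread between these samples, which may be technical in part.

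The cerebellum is dominated by granule neurons, small excitatory cells that receive mossy fibres through synapses rich in the GABA-A receptor subunit alpha-6, the product of Gabra6. Their parallel fibres contact the Purkinje cells, the inhibitory output neurons of the cerebellar cortex, which are wrapped by Bergmann glia. The cerebellum arises from the most anterior hindbrain, rostral to the domains in which the HOX transcription factors are expressed, while the brainstem below it holds serotonergic, noradrenergic and glycinergic neurons.

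The upstream sequences of the gene that chose the libraries and of a hindbrain gene that differed with it are shown. Both genes were present in the libraries with cerebellar transcripts and absent or nearly absent in those without. Regulation of these genes was not tested. These are the 250 bases before the RefSeq transcription start on the build GRCm38.p6, with capitals marking TTGGC or its reverse complement GCCAA, the half-site of nuclear factor I proteins. Nuclear factor I proteins are known regulators of Gabra6 in maturing granule neurons. Gabra6 lies on the minus strand, and the window is chr11:42321073-42321322. Slc6a4, the serotonin transporter, lies on the plus strand, and the window is chr11:76998347-76998596.
Gabra6: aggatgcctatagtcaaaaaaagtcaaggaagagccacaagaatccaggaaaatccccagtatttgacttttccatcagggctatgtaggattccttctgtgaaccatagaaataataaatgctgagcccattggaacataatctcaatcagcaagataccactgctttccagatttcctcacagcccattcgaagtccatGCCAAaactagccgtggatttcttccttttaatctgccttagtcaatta
Slc6a4: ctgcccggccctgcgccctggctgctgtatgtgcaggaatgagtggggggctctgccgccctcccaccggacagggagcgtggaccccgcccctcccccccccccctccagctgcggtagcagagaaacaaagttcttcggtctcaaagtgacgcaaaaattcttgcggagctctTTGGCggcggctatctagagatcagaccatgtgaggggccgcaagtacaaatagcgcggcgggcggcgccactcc
The match in Gabra6 begins 49 bases before the start and the match in Slc6a4 begins 75 bases before it. The letters occur on either strand in 41.5% of the 32851 promoters of this length, so a match does not set these 2 genes apart.

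The libraries held 15089140 to 16872925 counts each, and 16981 of 31276 gene symbols passed the filter on low counts. Prmt5 itself was at 90.7, 90.3 and 91.8 CPM in WT replicates 1 to 3 and at 68.2, 68.3 and 81.6 CPM in KO replicates 1 to 3. All 3 KO libraries were below all 3 WT libraries. The log2 fold change of KO over WT, with a term for the division, was -0.35 (SE 0.104, adjusted p 0.206, edgeR quasi-likelihood test with Benjamini-Hochberg adjustment). It was -0.41 with an adjusted p of 0.00402 in the same test with the replicate number as a block. That blocked fit takes genotype from replicates 1 and 2 only, because the division falls within replicate 3. KO3, the KO library highest in Prmt5, is therefore outside its estimate. Both sides of the division held libraries of both sexes: Xist was at 634 CPM in KO1, at 509 CPM in WT2 and at 603 CPM in KO2, and did not exceed 0.254 CPM in the other 3 libraries.

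Gabra6 (chr11:42306437-42321072, minus strand, mm10, protein-coding) had 1022 counts in WT1, 1316 in KO1 and 348 in KO3, and no count in the other 3 libraries. A count of 0 allows up to 3 counts, or 0.178 to 0.197 CPM in those libraries, and these limits cover counting error only. In CPM scaled with TMM composition factors, the scale used from here on, the libraries with Gabra6 held 63.8, 80.0 and 22.1 CPM. KO3 was therefore the library just inside the threshold of 5 CPM, and the libraries just outside were at 0. Pooled over the 3 libraries on each side, Gabra6 was at least 878-fold higher with than without, against a floor of 3 counts over the libraries without.

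The markers named with Gabra6 did not all behave as presence and absence. Cbln3, a granule-cell synaptic organiser of the cerebellin family (chr14:55878913-55884392), was at 95.5, 84.5 and 29.4 CPM in WT1, KO1 and KO3, and at 0.135, 0.722 and 0.756 CPM in WT2, WT3 and KO2. Zic1, a zinc-finger factor of granule neurons and of several forebrain and meningeal cells, was at 150, 184 and 72.5 CPM in the libraries with and at 34.3, 30.8 and 58.9 CPM in those without. Zic1 was thus well expressed in all 6 libraries, and its level in the libraries without is no sign of cerebellum. Its gene overlaps Zic4 on the opposite strand, and reads of such pairs could not be separated here. In bulk RNA a lower level of a cell type's transcripts can come from fewer such cells or from less RNA per cell, and these cannot be told apart.

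Across the transcriptome, 119 of 16981 genes (0.701%) passed an adjusted p under 0.05 in the edgeR quasi-likelihood fit with genotype as a term, and are called different here only in that sense. Of these, 102 (0.601% of genes tested) were higher in the libraries with cerebellar transcripts and 17 (0.1%) were lower. By at least 2-fold, 74 were higher and 2 were lower. The ranges of the 3 and 3 libraries did not overlap for 112 of the 119, and across all genes they did not overlap for 12.5%. All 119 had the same sign within the WT libraries and within the KO libraries. The median log2 fold change of all genes was -0.00155. The rule used this contrast, so nothing is read from these counts. The number moved with single libraries: 1 gene was called without WT1, 23 without KO2, 41 without WT2, 61 without WT3 and 799 without KO3. Without KO1, 80 were called, of which 78 were shared with the 119.

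**Figure D1:**
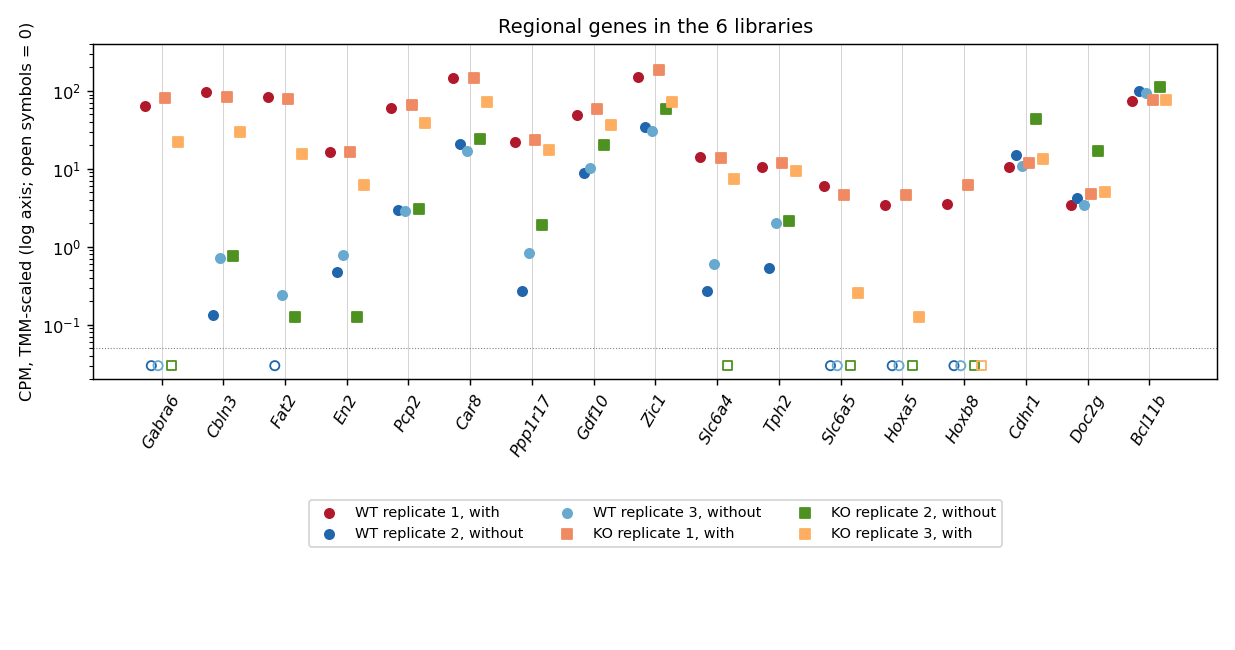
CPM on a log axis of 17 regional genes in each of the 6 libraries, circles for WT and squares for KO, with open symbols on the lowest line for 0. Gabra6, Cbln3, Fat2 and En2 fall to under 1 CPM in the 3 libraries without, Slc6a5 and the HOX genes are near absent in KO3 as well, and Cdhr1 and Doc2g stand highest in KO2.

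Granule neuron genes included the largest single differences. Of 15 members of the granule cell list, all tested, 10 were called higher and none lower, with a list median log2 fold change of 2.16. The ranges of 11 of the 15 lay wholly above, as they did for 6.52% of all genes tested. Fat2, a protocadherin of granule cell parallel fibres (chr11:55250609-55336564), was at 83.0, 77.7 and 15.8 CPM in WT1, KO1 and KO3, and at 0, 0.241 and 0.126 CPM in WT2, WT3 and KO2 (log2 fold change 9.03, SE 0.790). En2, the engrailed homeobox factor that patterns the midbrain and cerebellum (chr5:28165694-28172166), was at 16.6, 16.7 and 6.16 CPM against 0.473, 0.782 and 0.126 CPM in the same order (log2 fold change 5.07, SE 0.471). These genes and Cbln3 were nearly confined to the libraries with Gabra6.

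Other granule neuron genes kept a clear level without cerebellar transcripts. Neurod1, a proneural factor of granule neurons that the hippocampus also uses, was at 114, 131 and 52.0 CPM against 18.7, 20.4 and 14.2 CPM (log2 fold change 2.61, SE 0.274). Cbln1, the cerebellin released from parallel fibres, was at 152, 183 and 81.1 CPM against 33.7, 27.3 and 33.5 CPM (2.16, SE 0.245). Barhl1 (3.60, SE 0.386), Mab21l1 (2.62, SE 0.294), Pax6 (1.31, SE 0.233) and Grm4 (1.06, SE 0.143) completed the called members. The listed genes not called, which other brain regions also express, were Etv1 at a log2 fold change of 0.25, Gabrd at -0.11, Grin2c at 0.24, Cadps2 at 0.60 and Calb2 at 0.47.

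Among the ZIC genes, Zic1 (log2 fold change 1.67, SE 0.296) and Zic2 (1.46, SE 0.231) were called higher of 5 tested, with a list median of 1.46. The 11 tested members of the list of granule cell progenitors and Sonic hedgehog targets included none called, with a median of 0.32. Atoh1, the factor that defines granule cell progenitors, was at 0.250, 0.973 and 0.635 CPM in the libraries with and had no count in the others, at least 9.81-fold higher. Ptch1, the Sonic hedgehog receptor, was at 56.2, 61.6 and 44.9 CPM against 40.3, 43.8 and 38.1 CPM.

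Purkinje cell genes held the largest share of called members. Of 16 tested, 12 were called higher, all 16 had a positive log2 fold change, and the median was 1.84. Pcp2, a G-protein regulator of Purkinje cells (chr8:3623371-3625545), was at 59.8, 66.0 and 39.3 CPM in WT1, KO1 and KO3 against 2.97, 2.89 and 3.02 CPM (log2 fold change 4.25, SE 0.215). The 3 libraries without differed by less than 0.2 CPM. Pet100, a mitochondrial assembly gene that overlaps Pcp2 on the opposite strand, was called with it, at 50.3, 48.1 and 37.1 CPM against 13.7, 14.1 and 15.6 CPM, and reads of the pair may be shared. Pet100 lies outside the naming rule and was chosen after its values were seen.

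Ppp1r17, a phosphatase inhibitor of Purkinje cells, was at 21.9, 23.6 and 17.5 CPM against 0.270, 0.843 and 1.89 CPM (log2 fold change 4.29, SE 0.355). Car8, a carbonic anhydrase relative that binds the IP3 receptor, was at 145, 146 and 71.3 CPM against 20.7, 17.2 and 24.1 CPM (2.57, SE 0.245). The calcium-binding proteins differed less: Pvalb by 1.71 (SE 0.145) and Calb1 by 0.68 (SE 0.114), both of which many forebrain interneurons express. Slc1a6, the Purkinje glutamate transporter, differed by 1.97 (SE 0.198), and the Purkinje lineage factors Lhx1 and Lhx5 by 2.96 (SE 0.497) and 2.42 (SE 0.32). Arhgef33 (4.10), Rgs8 (0.87) and Homer3 (0.72) were also among the called members.

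The smaller cell classes of the cerebellum showed the same direction in fewer members. Of 5 Bergmann glia genes, Gdf10 and Dao were called. Gdf10, a growth factor of Bergmann glia, was at 49.5, 58.6 and 36.8 CPM against 8.92, 10.3 and 20.3 CPM (log2 fold change 1.79, SE 0.234), whereas Slc1a3, the glutamate transporter of all astrocytes, differed by 0.04. Of 8 tested genes of cerebellar interneurons and unipolar brush cells, Pax2 (4.78, SE 0.779) and Tfap2b (2.32, SE 0.357), both transcription factors of the inhibitory lineage, were called, and the median was 0.475.

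Genes of the hindbrain outside the cerebellum divided the libraries as well. The HOX list used here covers both hindbrain and spinal cord. No HOX gene of the 16 listed had a count in any of the 3 libraries without Gabra6. All 16 were detected in WT1 and in KO1, with 383 and 669 counts in total, and 10 were detected in KO3, with 40 counts. Summed over the 16 genes, the level was at least 357-fold higher with than without. Hoxb8 (chr11:96281905-96285315) was at 3.56 CPM in WT1 and 6.20 CPM in KO1 and had no count in KO3, while Hoxb5 (chr11:96303336-96306121) was at 3.56, 5.11 and 0.762 CPM. Hoxb5, at least 50.0-fold higher, was the called member of the 12 that passed the filter, and it overlaps the antisense gene Hoxb5os. Each of the 12 was taken against the floor of 3 counts, which gives a median log2 bound of 4.51. These 12 passed the filter only through the libraries with Gabra6, and the remaining listed genes did not pass. The median bound depends on that choice and supports nothing by itself.

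Neurotransmitter genes of the brainstem followed. Of 9 tested, 4 were called higher, and the list median was 3.57. Slc6a4, which returns serotonin to raphe neurons, was at 14.3, 13.7 and 7.37 CPM against 0.270, 0.602 and 0 CPM (log2 fold change 5.55, SE 0.484). Tph2, the rate-limiting enzyme of brain serotonin synthesis, was at 10.6, 12 and 9.27 CPM against 0.541, 2.05 and 2.14 CPM (2.67, SE 0.343). Slc6a2, the noradrenaline transporter, was at 1.94, 5.59 and 2.67 CPM against 0.135, 0.241 and 0 CPM (4.40, SE 0.718). Slc6a5, the glycine transporter of glycinergic neurons in brainstem and spinal cord, was at 6.06 and 4.62 CPM in WT1 and KO1, at 0.254 CPM in KO3 and at 0 in the others, at least 57.9-fold higher. The cholinergic genes Chat (-0.01) and Slc5a7 (0.62), which the forebrain also uses, were not called, nor were Dbh (1.88), Fev (3.57) and Glra1 (4.01).

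Midbrain genes divided less. En1, the engrailed paralogue of the midbrain and hindbrain, was at 3.25, 3.53 and 3.05 CPM against 0.676, 1.08 and 0.378 CPM (log2 fold change 2.33, SE 0.406), 1 called of 8, with a list median of 0.869. The dopamine genes Th (0.03, SE 0.250) and Slc6a3 (0.19, SE 0.311) overlapped between the libraries. Slc6a3 ran from 5.79 CPM in KO2 to 15.7 CPM in WT3, so both libraries at its extremes were without cerebellar transcripts.

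Some of the largest differences belonged to no regional list. Cnpy1, a neighbour of En2 in the genome and a factor of the midbrain-hindbrain boundary, was at 19.2, 24.8 and 7.31 CPM against 0.676, 0.241 and 0.252 CPM (log2 fold change 5.57, SE 0.534). Hes3, a Hes-family repressor of the same boundary, was at 4.25, 3.40 and 1.91 CPM against 0, 0 and 0.252 CPM (5.16, SE 0.746). Sycp1, a protein of the meiotic synaptonemal complex, was at 2.62, 2.43 and 1.65 CPM and had no count in the libraries without, at least 35.3-fold higher. Uncx, a homeobox factor placed on the olfactory bulb list, was at 4.99, 6.75 and 2.41 CPM against 0.338, 0.241 and 0.126 CPM (4.40, SE 0.534), and thus moved against the rest of that list.

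**Figure D2:**
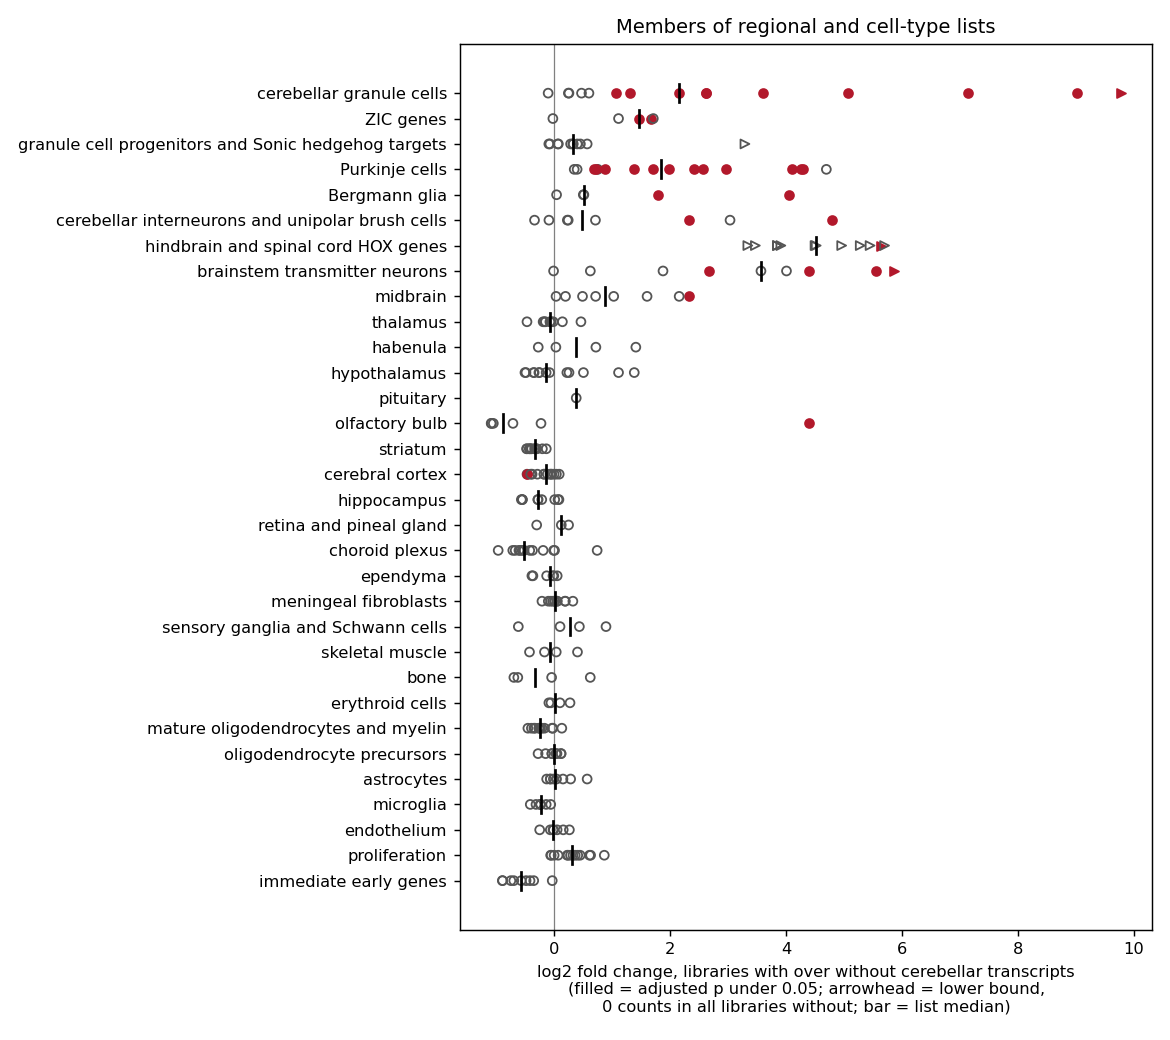
Log2 fold change of libraries with over libraries without cerebellar transcripts for each tested member of 32 regional and cell-type lists, with filled symbols for called genes, arrowheads for lower bounds against the count floor, and a bar at each list median. The cerebellar, HOX, brainstem and midbrain lists spread to the right, with medians up to 4.51. That highest median is the HOX bound, over genes that passed the filter only through the libraries with Gabra6. The 13 striatal genes all lie just below 0, as do 12 of the 14 cortical genes.

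Of the 17 genes lower in the libraries with cerebellar transcripts, 2 differed by at least 2-fold, and KO2 was the highest of the libraries without in all 17. Bcl11b, a zinc-finger factor of deep-layer cortical and striatal projection neurons (chr12:107910403-108003602), was at 73.8, 76.3 and 76.2 CPM in WT1, KO1 and KO3 against 98.8, 95 and 111 CPM in WT2, WT3 and KO2 (log2 fold change -0.47, SE 0.0923). It was the one called gene of the 14 cortical genes, whose median was -0.149. Of these 14, 12 had a negative log2 fold change, and the ranges of 6 lay wholly below, as they did for 5.97% of all genes tested. Npy, the peptide of forebrain interneurons, was at 80.5, 85.8 and 103 CPM against 113, 117 and 137 CPM (-0.52, SE 0.102). Wipf3, an actin regulator, was at 83.2, 80.7 and 84.8 CPM against 120, 118 and 155 CPM (-0.71, SE 0.105).

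Dlx1as, the antisense transcript of the forebrain interneuron factor Dlx1, differed by -0.78 (SE 0.130), with reads that may be shared between the pair. Kcnh4 (-0.77), Pxdn (-0.69), Mirg (-0.60), Snhg11 (-0.59), Shisa7 (-0.54) and Chn1os3 (-0.51) were the others named by the rule. None of the 13 striatal genes was called, yet all 13 had a negative log2 fold change, with a median of -0.34, and 6 did not overlap between the libraries, against 5.97% of all genes in this direction. The members of 1 list vary together within a library, so these 13 signs are not independent.

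Olfactory bulb genes showed 1 library rather than a division. Cdhr1, a protocadherin of mitral and tufted cells, was at 43.3 CPM in KO2 and between 10.6 and 15.1 CPM in the other 5 libraries. Doc2g, a mitral and tufted cell protein, was at 17.1 CPM in KO2 and between 3.49 and 5.02 CPM elsewhere, and Sp8, a factor of olfactory interneurons, was at 7.05 CPM against 1.94 to 4.45 CPM. KO2 was therefore 3.50-fold, 4.08-fold and 2.25-fold above the mean of the others for these genes. The list median of 6 tested genes was -0.883, and the part of KO2 in it was not tested beyond these values.

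The remaining regions differed little between the libraries. No member was called in the lists for thalamus (9 genes, median -0.0763), habenula (4 genes, 0.372), hypothalamus (13 genes, -0.142), pituitary (1 gene, 0.378), hippocampus (9 genes, -0.280) or retina and pineal gland (3 genes, 0.120). Slc17a6, the glutamate transporter of subcortical neurons, was at 136, 133 and 115 CPM against 87.7, 99.0 and 95.7 CPM. The ranges did not overlap, but the gene was not called (log2 fold change 0.46, SE 0.104).

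The rule used the level of Gabra6, and the 102 genes were called on the division it made, so their levels among the 3 libraries with it are given as a description. They are ratios of single libraries, with 95% binomial intervals that cover counting error only. KO1 was close to WT1: over the 102 genes called higher, the median ratio was 1.06, with a range of 0.286 to 2.89. KO3 held less, with a median ratio of 0.664 to WT1, and was the lowest of the 3 libraries for 92 of the 102.

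The shortfall in KO3 was not the same for all regional genes. Gabra6 stood at 0.346 of WT1 (interval 0.306 to 0.392), Cbln3 at 0.308 (0.277 to 0.342) and Fat2 at 0.190 (0.165 to 0.217), and the 15 granule cell genes had a median of 0.532. Purkinje cell genes stood higher, with Pcp2 at 0.657 (0.593 to 0.728), Ppp1r17 at 0.797 (0.678 to 0.936) and a median of 0.674 over 16 genes. These medians include genes that the libraries without also express. With the level of the libraries without subtracted, the medians were 0.384 for granule cell and 0.418 for Purkinje cell genes. Among genes under 10% of WT1 in every library without, a choice made after seeing the data, they were 0.327 for 4 granule cell genes and 0.554 for 4 Purkinje cell genes.

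Brainstem genes ranged from 0.042 to 1.38 of WT1 in KO3, with a median of 0.729 over 9 genes. The 12 tested HOX genes of hindbrain and spinal cord were low throughout, from 0 to 0.214. The HOX total of KO3 was 0.106 of that of WT1 (interval 0.0747 to 0.147), and Slc6a5 stood at 0.042 (0.0112 to 0.111, from 4 counts). Over the same pair of libraries, Slc6a4 stood at 0.515 (0.409 to 0.647), Tph2 at 0.874 (0.696 to 1.10), Dbh at 1.33 (0.981 to 1.81) and En1 at 0.939 (0.621 to 1.42). The intervals of Tph2, Dbh and En1 included 1, that of Slc6a4 did not, and the ratios of the HOX total and of Slc6a5 were lower than these 4. Pax7, a midbrain homeobox gene, stood at 0.339 (0.14 to 0.743). In KO1 the HOX total was 1.70 times that of WT1.

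**Figure D3:**
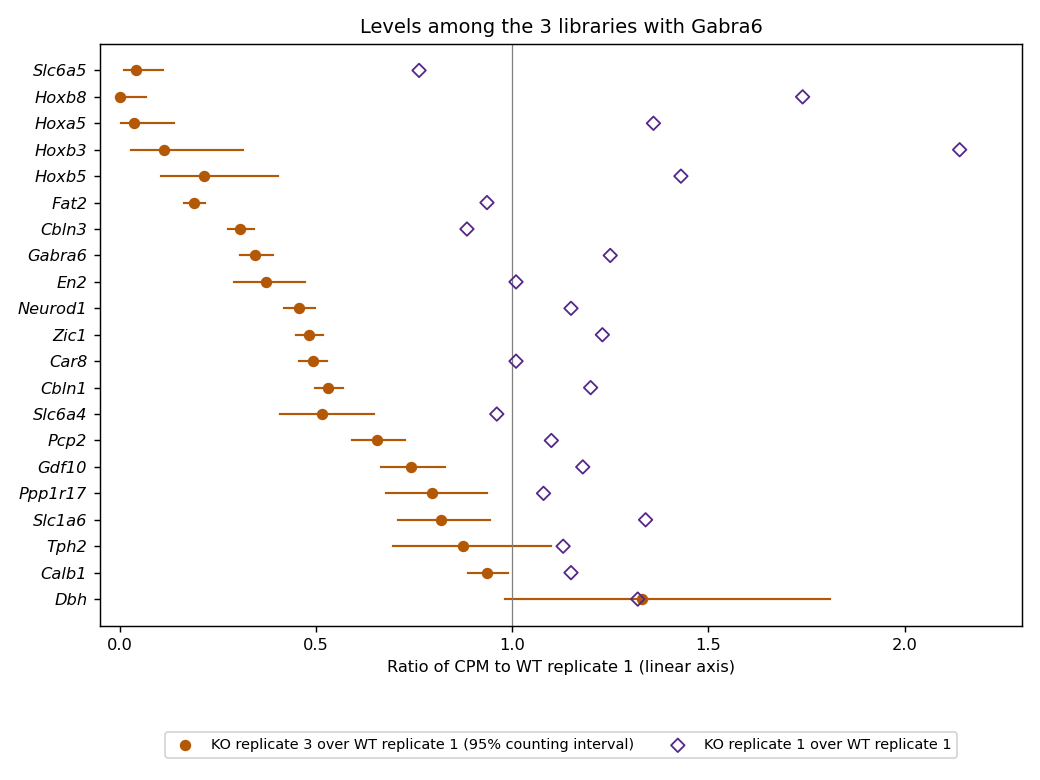
Ratio of CPM to WT1 on a linear axis for 21 regional genes, with filled circles and 95% counting intervals for KO3 and open diamonds for KO1. In KO3 the ratios run from 0 for Hoxb8 and 0.042 for Slc6a5 to 1.33 for Dbh, while KO1 stays between 0.763 and 2.14.

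Genotype was compared with the division as a term, which compares KO with WT within each side of it. The term marks presence only and does not make the amount equal. Gabra6 was at 63.8 CPM in WT1, 80.0 CPM in KO1 and 22.1 CPM in KO3. With the term, 225 genes (1.33%) were called, 44 higher in KO (0.259%) and 181 lower (1.07%), and without it 198 (1.17%) were called, 39 higher (0.23%) and 159 lower (0.936%). The fits shared 186 genes, all with the same direction, and the term added 39 and removed 12. With the replicate number as a block, where replicates 1 and 2 alone inform genotype, 510 were called. Without single libraries the count was 52 (WT1), 84 (KO2), 128 (WT2), 130 (WT3), 461 (KO3) or 466 (KO1). The oligodendrocyte result carried over: all 12 myelin genes and 7 of 8 precursor genes were called lower in KO. No member of either list had a positive log2 fold change. The list medians were -2.57 and -1.39, beside a median of 0.0116 over all genes. Mbp, a structural protein of myelin, was at 5629, 4075 and 4096 CPM in WT and at 632, 964 and 469 CPM in KO (log2 fold change -2.72, SE 0.223, adjusted p 4.79e-05, edgeR quasi-likelihood test with Benjamini-Hochberg adjustment).

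In this fit no member of the granule cell, ZIC, Purkinje cell, Bergmann glia, cerebellar interneuron, HOX, brainstem or midbrain lists was called. At an unadjusted p under 0.05, 2 of 15 granule cell genes, 1 of 5 Bergmann glia genes, 2 of 8 cerebellar interneuron genes and 1 of 8 midbrain genes passed, and none of the other 4 lists. Gabra6 had an adjusted p of 0.863, Pcp2 of 0.875 and Car8 of 0.936 (edgeR quasi-likelihood test with Benjamini-Hochberg adjustment). Calls in these lists came and went with the fit. With the replicate block, Zic1 (0.51, adjusted p 0.000243) and Gdf10 (0.62, adjusted p 0.00332) were called higher in KO by the same edgeR test, with the granule cell list members Grin2c and Calb2 and the unipolar brush cell gene Eomes. These 5 were also called higher without KO3. The blocked fit takes no genotype estimate from KO3 either, so the calls without KO3 are not separate support. Without KO1, the granule cell genes Gabra6 (-1.53), Fat2 (-2.33), Neurod1 and En2 and the interneuron gene Tfap2b were called lower in KO. Calb2 was called higher. On the side with cerebellar transcripts, that fit holds WT1 and KO3 alone. Gabra6 had no count on the other side, so its estimate restates the ratio of KO3 to WT1, 0.346, and is no separate support. Grin2c was also called higher without WT1. With a term for sex, Gabra6, Cbln3, Fat2, Hoxa5, Hoxb8 and Slc6a5 were called lower. KO1 was the only library with cerebellar transcripts that had high Xist, so this fit too compares KO3 with WT1 on that side. Grin2c and Calb2 were called higher with DESeq2, with Gabra6 CPM as a linear term and with no filter on low counts, and the last also called Eomes and Tfap2b in opposite directions.

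Among progenitor and Sonic hedgehog genes, Hhip, a decoy receptor for hedgehog ligands, fell, from 11.9, 10 and 8.55 CPM in WT to 5.47, 6.04 and 4.45 CPM in KO (log2 fold change -0.94, SE 0.205, adjusted p 0.0480). The call of Hhip held in 2 of 6 fits that left out 1 library, without KO1 and without KO3, and its adjusted p ranged from 0.0270 to 0.670.

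Forebrain genes called with the term lay mostly in the hypothalamus and olfactory bulb. In the edgeR quasi-likelihood test with Benjamini-Hochberg adjustment, the hypothalamic peptides Avp (2.23, SE 0.438, adjusted p 0.0278), Oxt (2.65, SE 0.524, adjusted p 0.0288) and Trh (0.98, SE 0.203, adjusted p 0.0373) rose in KO, 3 of 13 members of a list with a median of 0.978. Avp, the vasopressin gene, was at 1.69, 0.405 and 2.17 CPM in WT and at 4.26, 9.45 and 5.27 CPM in KO, so the groups did not overlap. Oxt, the oxytocin gene, was at 0.999, 0.270 and 0.602 CPM in WT and at 1.70, 6.30 and 3.43 CPM in KO. Trh, the thyrotropin-releasing hormone gene, was at 10.7, 11.2 and 8.43 CPM against 14.3, 22.0 and 22.4 CPM. KO2, without cerebellar transcripts, was the highest library for Avp and Oxt.

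Without KO2, which took the genotype count from 225 to 84, none of these calls held: the log2 fold changes were then 1.49 for Avp, 1.35 for Oxt and 0.78 for Trh, each with an adjusted p of 0.979 in the same edgeR test. The same was true of the olfactory genes Doc2g (1.42, SE 0.304, adjusted p 0.0451) and Sp8 (1.18, SE 0.247, adjusted p 0.0391), at 0.48 (adjusted p 0.979) and 1.03 (adjusted p 0.957) without that library, which stands highest for both. Ttr, the thyroid hormone carrier made by the choroid plexus, was at 392, 565 and 515 CPM in WT and at 675, 922 and 511 CPM in KO (0.69, SE 0.120, adjusted p 0.0134), and at 0.59 with an adjusted p of 0.580 without KO2. Leaving out WT2 or WT3 also ended the calls of Trh, Oxt, Doc2g, Sp8 and Ttr, and leaving out WT1 those of Avp, Trh, Sp8 and Ttr, while that of Avp was also lost without WT3, with a range of 7.28e-06 to 0.979 over these 6 genes. Their fold changes kept their sign in each of the 6 fits, at 1.49 to 2.84 for Avp, 1.35 to 3.81 for Oxt, 0.78 to 1.17 for Trh, 0.48 to 2.16 for Doc2g, 1.03 to 1.29 for Sp8 and 0.59 to 0.78 for Ttr.

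Other genes gained a call with the term. Nkx6-2, a homeobox factor of oligodendrocytes, was at 15.9, 10.6 and 10.8 CPM in WT and at 7.17, 4.97 and 6.61 CPM in KO (-1.16, SE 0.167, adjusted p 0.00346, edgeR quasi-likelihood test with Benjamini-Hochberg adjustment). Within each genotype its highest library was one with cerebellar transcripts. Lhx8, a homeobox factor of forebrain cholinergic neurons, was at 0.999, 2.43 and 2.29 CPM in WT and at 2.92, 7.62 and 2.54 CPM in KO (1.59, SE 0.269, adjusted p 0.0105, same test), and it is 1 of 4 genes called both for genotype and for the division, where it differed by -1.39 (SE 0.268). The calls of Nkx6-2 and Lhx8 were lost without WT1 (adjusted p 0.329 and 0.136) and without KO2 (0.071 and 0.715), and that of Lhx8 also without WT2 (0.0553) and WT3 (0.0637), while over the 6 fits the fold changes ranged from -1.21 to -1.10 for Nkx6-2 and from 1.44 to 1.69 for Lhx8. Il33, a cytokine of glia, at 13.0, 12.8 and 11.1 CPM against 19.1, 19.5 and 20.3 CPM, was called without the term and narrowly not with it (0.65, SE 0.144, adjusted p 0.0529).

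**Figure D4:**
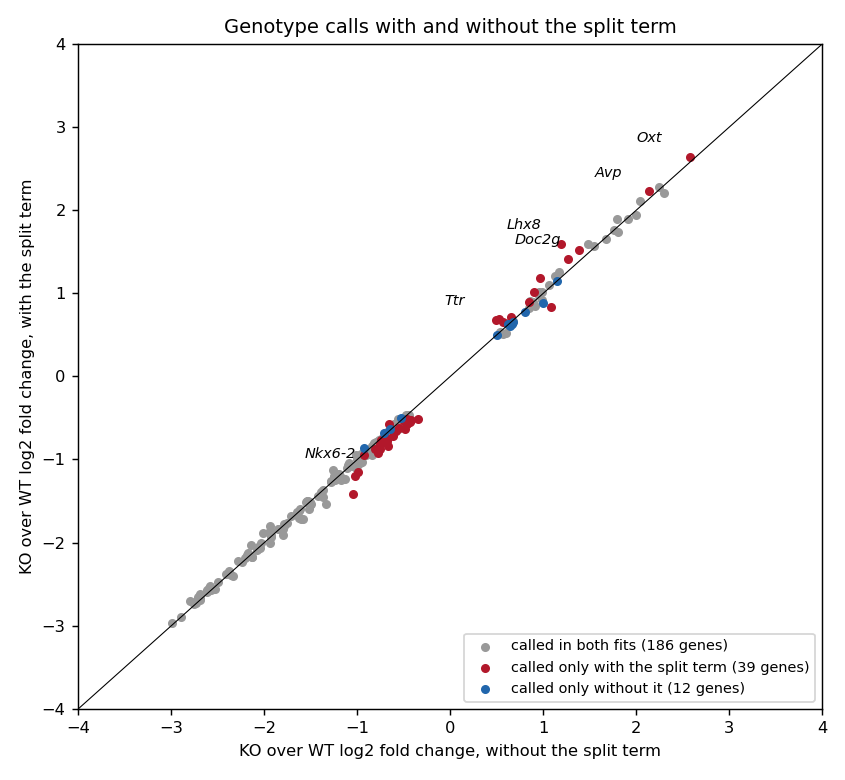
Log2 fold change of KO over WT without (horizontal) and with (vertical) the term for cerebellar transcripts, for every gene called in either fit. The points lie along the diagonal: 186 grey genes called in both, 39 red genes called only with the term, among them Avp, Oxt, Doc2g, Lhx8, Ttr and Nkx6-2, and 12 blue genes called only without it.

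Whether the genotype difference itself was unlike on the 2 sides of the division was tested as an interaction. No gene of 16981 (0%) was called by the edgeR quasi-likelihood test with Benjamini-Hochberg adjustment, 424 (2.5%) had an unadjusted p under 0.05, and DESeq2 called 9. Without single libraries edgeR called 9 (WT2), 6 (WT3), 595 (KO1) or 51 (KO3) genes, with 1 residual degree of freedom. The genes with the smallest p were those of myelin. Mog, a myelin surface glycoprotein, was at 105 CPM in WT1 and at 9.67 and 9.21 CPM in KO replicates 1 and 3 with cerebellar transcripts, and at 71.3 and 82.7 CPM in WT replicates 2 and 3 and 21.1 CPM in KO2 without them. The log2 fold change of KO over WT was -3.48 with and -1.87 without, a difference of -1.61 (SE 0.231, adjusted p 0.575, edgeR). KO2 was the highest KO library and WT1 the highest WT library for Mog and Mbp, and each stands alone in its cell of this comparison. The 9 calls of DESeq2 included Mog, Mbp, Mobp, Mal, Mag, Cldn11 and Gsn, all lower, and Erdr1, which was higher; the adjusted p of the 9 by edgeR ran from 0.575 to 0.775.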

How the data were processed

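Trizol RNA was made into TruSeq mRNA libraries and read as 150 bp pairs, per the labels' protocols. STAR 2.3.0e and featureCounts 1.5.0 on mm10, after Trimmomatic 0.32 and FastQC 0.11.2, and then DESeq2, are named in the submitters' processing notes. Strand and multi-mapping settings are not given in the sources used here. The authors deposited whole-number read counts per gene symbol, which were used. A deposited table of normalized signal was not used here. Totals are 15089140 to 16872925 counts per library, and low genes are limited by counting error.

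From the counts, edgeR 4.0.16 in R 4.3.3 was fitted (filterByExpr on genotype and division, TMM, glmQLFit and glmQLFTest, Benjamini-Hochberg adjusted p under 0.05) over all 16981 genes and 6 libraries, with genotype and division as terms and 3 residual degrees of freedom, or 2 with their interaction. The common biological coefficient of variation was 0.13. CPM use TMM-scaled totals. Bounds use 3 counts pooled over the libraries without. Coordinates are from GENCODE M21 on mm10, and promoter sequences from RefSeq. DESeq2 1.42.0 and limma 3.58.1 served as alternatives, and the fits were tested on simulated data.

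The members and 33 gene lists were chosen with earlier results of these data known. Named genes are Gabra6, Cbln3, Zic1, Prmt5, Mbp, Sox10, Olig2; the 12 largest higher and lower called genes of the division whose ranges do not overlap and whose mean reaches 1 CPM; called list members, or else the 2 with the smallest p; and up to 6 genes that gained, lost or showed an interaction call. Predicted genes were counted, not named (4 higher, 4 lower). A few genes that the rule takes are not reported here. Within a genotype, the chi-square per degree of freedom between libraries was 6.75 to 27.4, so none was a duplicate. Deviations of same-numbered WT and KO libraries from their group means correlated at 0.363, 0.318 and 0.172 over 16981 genes. The numbers were taken to pair the samples in the blocked fits, but the labels do not state a pairing. WT1 and KO1 lie on the same side of the division, as do WT2 and KO2. The correlations of these pairs therefore cannot show whether the numbers mark pairs. Over the 15534 genes that did not differ with the division at an unadjusted p under 0.05, the correlations were 0.0744, 0.111 and 0.227.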

Additional observations from a re-analysis of the deposited data

How the results depend on the processing

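The number of genes that differed between libraries with and without cerebellar transcripts was 119, and 450 with no filter on low counts, 248 with a term for sex, 72 with no genotype term, 348 with Gabra6 CPM as a linear term, 211 with DESeq2, 16 within WT and 1 within KO. When 1 library was left out, it ranged from 1 (without WT1) to 799 (without KO3). It was 41 without WT2, 61 without WT3, 23 without KO2 and 80 without KO1. None of the 17 lower genes was called without WT1, without WT2 or without KO2. With a replicate block, in which only pair 3 informs the division, 111 genes were called, 40 higher and 71 lower, of which 30 were shared with the 119. For genotype, 225 became 532 with no filter and 510 with the replicate block (all 225 shared), in which only pairs 1 and 2 inform genotype. The genotype count ranged from 52 (without WT1) to 466 (without KO1), with 461 without KO3, 84 without KO2, 128 without WT2 and 130 without WT3. The interaction count of 0 became 11 with no filter and 9 with DESeq2, and ranged from 6 (without WT3) to 595 (without KO1). No paired analysis was possible for the interaction because too few degrees of freedom remain, and leaving out WT1 or KO2 empties a cell of it. The causes were not tested. Median ratios of KO3 to WT1 became, without composition scaling, 0.552 for granule cell and 0.699 for Purkinje cell genes; with the level of the libraries without subtracted, 0.384, 0.418 and, for brainstem genes, 0.505; and over members under 10% of WT1 in each library without, an alternative chosen after seeing the data, 0.327, 0.554 and 0.279. DESeq2 gave no adjusted p for 1317 genes of the genotype comparison.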

Other observations

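Lists that do not stand for a brain region, of brain cells and of other tissues, were compared with the regional lists, as descriptions. No member was called for the division among astrocytes (8 genes, median log2 fold change 0.0111), endothelium (7, -0.0149), oligodendrocyte precursors (8, -0.00706), mature oligodendrocytes and myelin (12, -0.247), microglia (7, -0.237), meningeal fibroblasts (11, 0.00868), ependyma (6, -0.0778), erythroid cells (4, 0.0199), skeletal muscle (4, -0.0684), bone (4, -0.338), and sensory ganglia and Schwann cells (4, 0.265). The 5 sex-linked genes held no called member either, with a median of 2.09. Proliferation genes (14, 0.301) held no called member. The ranges of 5 of the 14 lay wholly above, as they did for 6.52% of all genes tested. Mki67, a marker of cycling cells, was among these 5, at 20.2, 28.1 and 17.1 CPM with cerebellar transcripts against 15.7, 10.8 and 14.9 CPM without.

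Immediate early genes, which neuronal activity induces within minutes, were lower with cerebellar transcripts in 9 of 9 members, with a median of -0.571 and none called. Egr1 was at 159, 163 and 194 CPM in WT1, KO1 and KO3 against 297, 253 and 227 CPM in WT2, WT3 and KO2. Fos was at 18.2, 16.8 and 22.0 CPM against 32.9, 25.3 and 23.9 CPM. Choroid plexus genes were lower in 11 of 13 members, with a median of -0.521 and none called, whereas Otx2, a homeobox factor of choroid plexus and midbrain, was at 5.74, 7.96 and 5.91 CPM against 2.97, 4.09 and 4.03 CPM. Klk6, a serine protease of oligodendrocytes, was called higher and was at 4.68, 1.34 and 0.381 CPM against 0.270, 0.482 and 0 CPM, so that KO3 lay within the range of the libraries without. Klk6 was chosen after its values were seen.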
